A study of Mus musculus with 9 samples.

Results

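Fgf4, Fgfr1, Fgfr2, Dusp6, Spry2, Spry4, Spred1, Etv4, Etv5 and Egr1 cover the FGF-ERK pathway from ligand to target gene, and were picked by symbol from the deposited gene expression table. All 10 were found among the 15074 genes used. Poly(A) RNA was sequenced from mouse embryonic stem cells (ESCs) of 3 lines at days 0, 2 and 4 of differentiation, 1 library for each of the 9 combinations. WT cells are the J1 line, with both Dnmt1 alleles intact. 1KO cells are Dnmt1-/- ESCs derived from J1, so they lack DNMT1, the enzyme that copies CpG methylation onto new DNA after replication. 1KO+1CI cells are 1KO cells with a transgene, under the ubiquitous CAG promoter, for DNMT1 C1229S, a catalytically inactive form, and the column names show 1 clone of it. All lines were grown with serum and LIF on mouse embryonic fibroblast feeders that had been growth-arrested, and for differentiation LIF was withdrawn, the cells being held 1 day in suspension as embryoid bodies and then attached.

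FGF4 is the main FGF that mouse ESCs secrete, and it acts back on the same cells through the receptor tyrosine kinases FGFR1 and FGFR2. The receptors recruit adaptors that load RAS with GTP, and RAS starts a chain of kinases that ends in ERK. ERK activity switches on its own inhibitors: DUSP6 is a phosphatase that dephosphorylates ERK, SPRY2, SPRY4 and SPRED1 act upstream at RAS and RAF, and the transcription factors ETV4, ETV5 and EGR1 are among its usual transcriptional readouts. In ESCs the pathway pushes cells out of the naive state. The values here are transcript levels and hold no measurement of ERK phosphorylation.

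Levels are FPKM, fragments per 1000 bases of transcript scaled to the mapped reads of the library, and differences are on the scale of log2(FPKM + 1) unless a ratio is given. The libraries held 20100000 to 28000000 counted reads as recovered from the steps in the values, and the least covered member value, Fgfr2 in WT at day 4, rests on about 161 reads, a counting SD of 7.88%. With 1 library a condition there is no replicate SD. The targeted gene followed the labels: Dnmt1 was at 74.0, 80.4 and 48.5 FPKM in WT at days 0, 2 and 4, at 13.7, 17.4 and 12.3 in 1KO and at 315, 129 and 158 in 1KO+1CI, whose reads include the transgene. Pou5f1, which encodes the pluripotency factor OCT4, was at 632 FPKM or more in every library. Transcripts of feeder fibroblasts were present at day 0: the 9 measured of 10 listed markers, such as Col1a1, summed to 121, 293 and 320 FPKM in WT, 1KO and 1KO+1CI at day 0 and to between 19.1 and 53.5 FPKM in the 6 later libraries. The deposited values hold no 0 for any gene in any library, so the lack of a 0 for a marker is not evidence of its transcript. Fewer cells of a type and less RNA per cell cannot be told apart in these libraries.

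DNMT1 acts on CpG dinucleotides, so the 250 bases before the transcription start are shown for 4 members whose RefSeq start (build GRCm38.p6) is also an annotated transcript start, with each CpG in capitals, 5′ to 3′ on the gene's strand. RefSeq promoter entries matched 6 of the 10 members. Fgf4 lies at chr7:144861136-144861385 (plus strand, 21 CpGs), Dusp6 at chr10:99262981-99263230 (plus, 16 CpGs), Spry2 at chr14:105896820-105897069 (minus, 23 CpGs) and Etv5 at chr16:22439571-22439820 (minus, 27 CpGs). No other window of the 6 matched members met that rule. Fgfr2 and Spred1 had entries with 2 and 31 CpGs and Etv5 a second one with 18, all without an annotated start.
Fgf4: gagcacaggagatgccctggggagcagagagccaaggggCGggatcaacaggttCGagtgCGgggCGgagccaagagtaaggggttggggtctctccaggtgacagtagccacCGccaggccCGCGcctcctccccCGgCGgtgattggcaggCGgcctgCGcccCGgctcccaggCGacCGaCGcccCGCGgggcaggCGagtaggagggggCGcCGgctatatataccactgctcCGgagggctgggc
Dusp6: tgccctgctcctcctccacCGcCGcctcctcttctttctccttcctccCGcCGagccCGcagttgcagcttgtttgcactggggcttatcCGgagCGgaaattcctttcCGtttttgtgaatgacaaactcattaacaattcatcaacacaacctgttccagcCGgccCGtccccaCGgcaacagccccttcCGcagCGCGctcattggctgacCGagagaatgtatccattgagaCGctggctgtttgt
Spry2: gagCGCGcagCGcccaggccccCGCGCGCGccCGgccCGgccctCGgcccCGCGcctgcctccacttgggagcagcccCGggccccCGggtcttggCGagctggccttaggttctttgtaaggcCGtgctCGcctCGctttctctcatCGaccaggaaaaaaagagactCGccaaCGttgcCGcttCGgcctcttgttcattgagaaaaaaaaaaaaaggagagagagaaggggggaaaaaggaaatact
Etv5: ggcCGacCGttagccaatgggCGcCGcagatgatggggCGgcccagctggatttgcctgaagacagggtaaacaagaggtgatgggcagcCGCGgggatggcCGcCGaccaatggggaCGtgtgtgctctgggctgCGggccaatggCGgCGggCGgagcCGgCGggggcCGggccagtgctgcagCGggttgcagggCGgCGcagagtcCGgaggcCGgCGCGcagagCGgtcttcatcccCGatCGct
All 4 windows hold at least as many CpGs as the upper quartile of 32851 mouse promoter windows of the same length, which is 16, with a median of 6. The core CGGAAG, bound by many ETS factors, was searched on both strands. It was found once in the Dusp6 window and in none of the other 3, and 13.6% of all windows hold it. The Spred1 window, which is not shown, also held it once. Methylation at these CpGs was not analysed here.

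The ligand gene Fgf4 (chr7:144847367-144865243, GRCm38) was lower at day 4 than at day 2 in every line, and lowest at day 4 in the lines without active DNMT1. WT cells held 36.4, 54.5 and 21.4 FPKM at days 0, 2 and 4. 1KO cells held 31.8, 42.7 and 6.11 FPKM. 1KO+1CI cells held 38.3, 40.7 and 5.14 FPKM. Both mutant lines were below WT at days 2 and 4, while at day 0 the WT value lay between theirs. From day 2 to day 4 the level dropped 2.55-fold in WT, 6.98-fold in 1KO and 7.91-fold in 1KO+1CI.

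**Figure D1:**
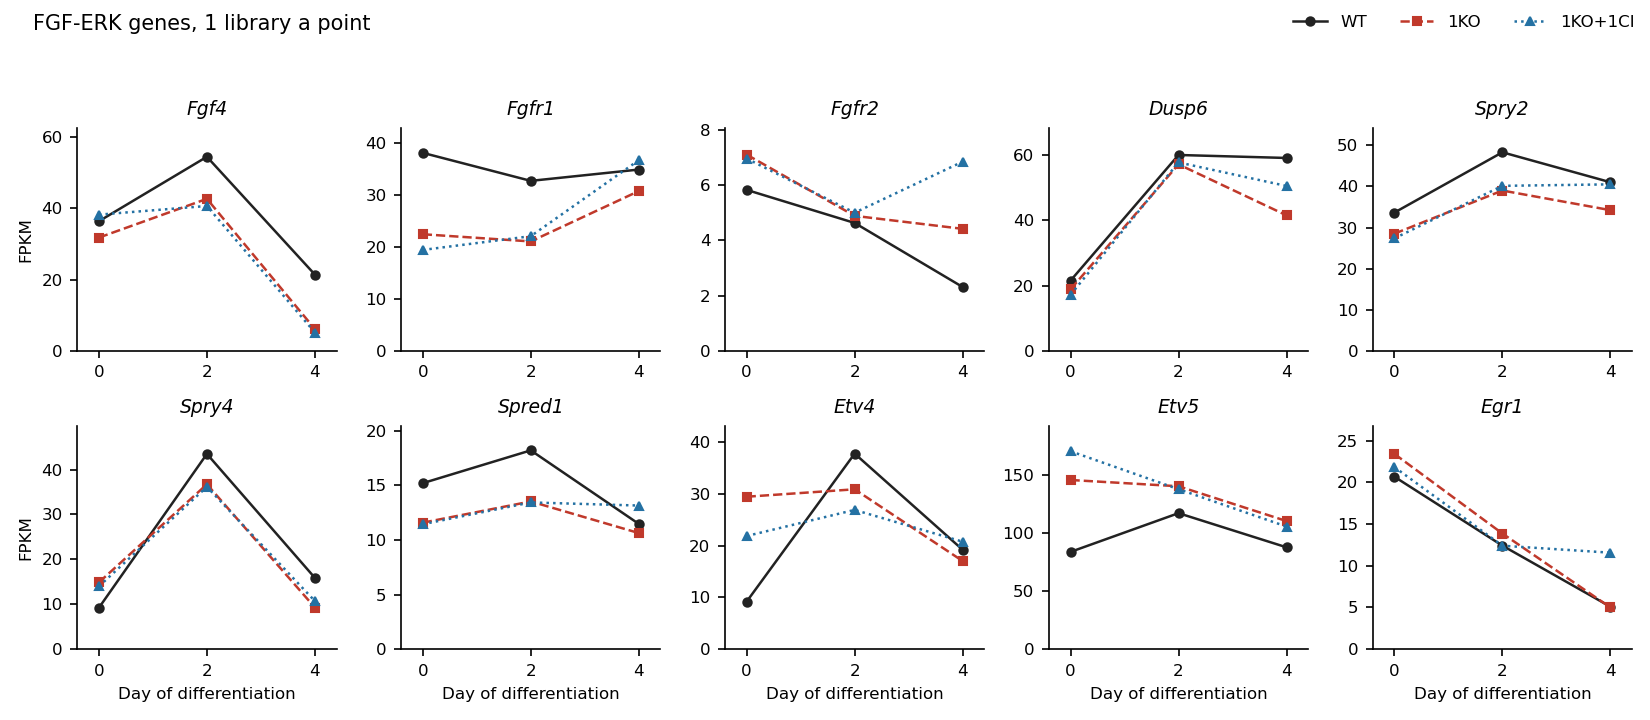
FPKM of the 10 FGF-ERK genes (y axes from 0, each on its own scale) against day of differentiation for WT, 1KO and 1KO+1CI, 1 library a point with no replicate error. Dusp6, Spry2 and Spry4 are higher at day 2 than at day 0 in all 3 lines, Fgf4 is lower at day 4 than at day 2, and Etv4 at day 0 is at 9.17 FPKM in WT against 29.4 and 21.9 in the mutant lines.

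To ask which day differences were shared by the lines, line and day were fitted together across 13288 genes with limma, which has 4 residual degrees of freedom. The 3 lines of a day and the 3 days of a line are not replicates, so the residual holds both noise and any way in which the lines respond differently. Between day 0 and day 2, 3 of the 10 members passed an adjusted p of 0.05, all of them higher, beside 17.5% of all genes (8.65% of all genes were called higher). The members' median difference was 0.29, against 0.02 over all genes. The called genes were the inhibitors Dusp6, Spry4 and Spry2.

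Dusp6 (chr10:99263231-99267489) rose from day 0 to day 2 and stayed up. Its level was 21.5, 60.0 and 59.1 FPKM in WT at days 0, 2 and 4, 18.9, 57.2 and 41.5 in 1KO, and 17.2, 57.8 and 50.5 in 1KO+1CI. No day 0 library overlapped with a later one. The difference from day 0 was 1.56 ± 0.11 (SE) at day 2 (limma, adjusted p = 0.000378) and 1.34 ± 0.11 at day 4 (limma, adjusted p = 0.000272), in the same direction in 3 of 3 lines, and both stayed past the threshold with any 1 library left out.

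Spry4 (chr18:38586247-38601415), an inhibitor of the same family as Spry2, peaked at day 2. WT held 9.21, 43.5 and 15.9 FPKM at days 0, 2 and 4, 1KO held 14.9, 36.7 and 9.26, and 1KO+1CI held 14.0, 36.2 and 10.7. The day 2 libraries stood above all others. The rise to day 2 was 1.56 ± 0.23 (SE; limma, adjusted p = 0.00438) and the difference from day 2 to day 4 was -1.65 ± 0.23 (limma, adjusted p = 0.00295). As ratios, day 2 over day 0 was 4.73 for WT, 2.47 for 1KO and 2.59 for 1KO+1CI.

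Spry2 (chr14:105891947-105896819) also rose from day 0 to day 2, by a smaller amount. Its levels at days 0, 2 and 4 were 33.6, 48.3 and 41.0 FPKM in WT, 28.5, 39.0 and 34.2 in 1KO, and 27.4, 40.1 and 40.5 in 1KO+1CI. Within each line day 0 was the lowest, but the WT day 0 value was close to the 1KO day 4 value. The difference from day 0 was 0.50 ± 0.10 (SE) at day 2 (limma, adjusted p = 0.0124) and 0.36 ± 0.10 at day 4 (limma, adjusted p = 0.0266). The day 2 call was lost without 1KO day 2 (adjusted p = 0.0825), 1KO+1CI day 0 (0.0657) or 1KO+1CI day 2 (0.0507). The day 4 call was lost without 1KO day 0 (adjusted p = 0.0616), 1KO day 2 (0.0617), 1KO day 4 (0.0694), 1KO+1CI day 0 (0.132) or 1KO+1CI day 4 (0.116). Spred1 (chr2:117121374-117182279), which blocks RAF activation, lay between 10.6 and 18.2 FPKM in all 9 libraries and passed no test.

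From day 2 to day 4, 3 of 10 members passed, all lower, beside 25.7% of all genes (13.3% lower). These were Spry4, Fgf4 and Egr1, and the count was 6 without the WT day 0 library. Fgf4 fell by 2.23 ± 0.31 (SE; limma, adjusted p = 0.00324), lower in 3 of 3 lines and past the threshold with any library left out. Against day 0, 4 of 10 members passed at day 4, Dusp6 and Spry2 higher and Fgf4 and Egr1 lower, beside 25.8% of all genes, and the count was 7 without the WT day 0 library. For Fgf4 that difference was -1.87 ± 0.31 (limma, adjusted p = 0.00446). The members' median was -0.35 from day 2 to day 4 and -0.09 from day 0 to day 4, against 0.00 and 0.02 over all genes.

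Egr1 (chr18:34859823-34864984), an immediate-early transcription factor gene, declined over the course. It was at 20.7, 12.4 and 5.08 FPKM in WT at days 0, 2 and 4, at 23.4, 13.9 and 5.00 in 1KO, and at 21.8, 12.4 and 11.6 in 1KO+1CI. The 3 lines lay close together at days 0 and 2, and at day 4 the 1KO+1CI library lay apart from the others. Egr1 differed by -1.57 ± 0.23 (SE) at day 4 against day 0 (limma, adjusted p = 0.00259). The day 4 against day 2 difference of -0.85 ± 0.23 (limma, adjusted p = 0.0304) was lost without WT day 2 (adjusted p = 0.114), WT day 4 (0.0890), 1KO day 2 (0.136) or 1KO day 4 (0.139). Summed feeder markers were also lower after day 0 in every line, going from 121 to 19.6 FPKM in WT, from 293 to 35.8 in 1KO and from 320 to 53.5 in 1KO+1CI at day 2; their part in the Egr1 values was not tested. Before embryoid bodies were formed, feeder cells had been depleted by letting them attach to gelatin. Whether the day 0 RNA came from depleted cells is not given in the sources used here.

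Fos and Fosb, which encode AP-1 subunits and are induced by ERK in many cells, also fell after day 0. Fos was at 34.1, 28.5 and 25.1 FPKM in WT, 1KO and 1KO+1CI at day 0 and at 1.34, 1.29 and 1.70 at day 2. Fosb was at 13.1, 13.4 and 7.87 FPKM at day 0 and at 0.22, 0.12 and 0.13 at day 2. Neither gene had a later library near its day 0 level. Against day 0, Fos differed by -3.62 ± 0.19 (SE; limma, adjusted p = 0.000186) and Fosb by -3.39 ± 0.20 (limma, adjusted p = 0.000190) at day 2. Of the 16 tested genes in a list of 18 other ETS and immediate-early targets, Fos and Fosb among them, 2 rose and 5 fell at day 2, beside 17.5% of all genes called, and 0 rose and 6 fell at day 4 against day 0, beside 25.8%. The list's median difference was -0.22 and -0.24, against 0.02 over all genes in both.

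**Figure D2:**
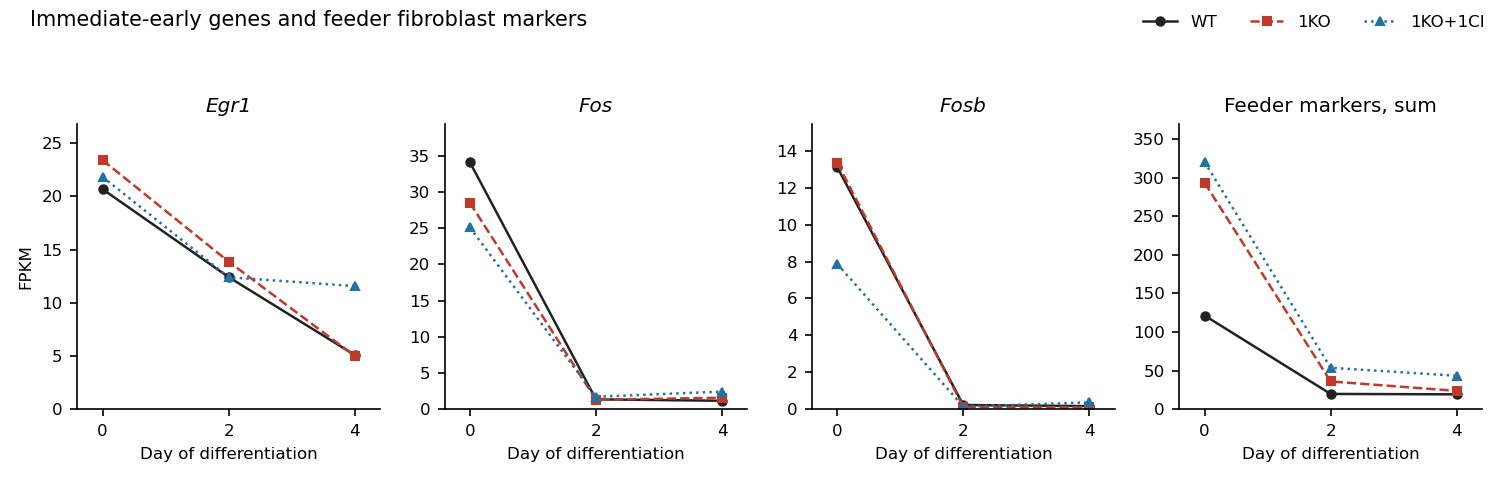
FPKM of Egr1, Fos and Fosb and the summed FPKM of 9 feeder fibroblast markers (y axes from 0) against day of differentiation, 1 library a point. Fos, Fosb and the feeder sum are highest at day 0 in each line, and Egr1 at day 4 is 11.6 FPKM in 1KO+1CI against 5.08 in WT.

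Lines were then compared with WT. Across all days, 0 of 10 members passed in 1KO against WT (limma, with 4 at an unadjusted p under 0.05), beside 2.51% of all genes, and 0 passed in 1KO+1CI against WT (limma, 4 at an unadjusted p under 0.05), beside 4.82% of all genes. Leaving out WT day 4 gave 1 call in each, Fgfr1 (adjusted p = 0.0375 and 0.0317). The members' median was -0.18 in 1KO and -0.13 in 1KO+1CI, against 0.00 over all genes in both. These comparisons share the WT libraries.

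To compare the lines at each day, 1KO and 1KO+1CI were also taken as 2 libraries a day without active DNMT1 and set against the 1 WT library of that day, a comparison chosen after the values were seen. It has 3 residual degrees of freedom, all of them from the gap between 1KO and 1KO+1CI, and the lone WT library is assumed to vary like the others. The second line was derived from the first, so that gap may be smaller than the spread between independent cultures and the p-values too small.

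**Figure D3:**
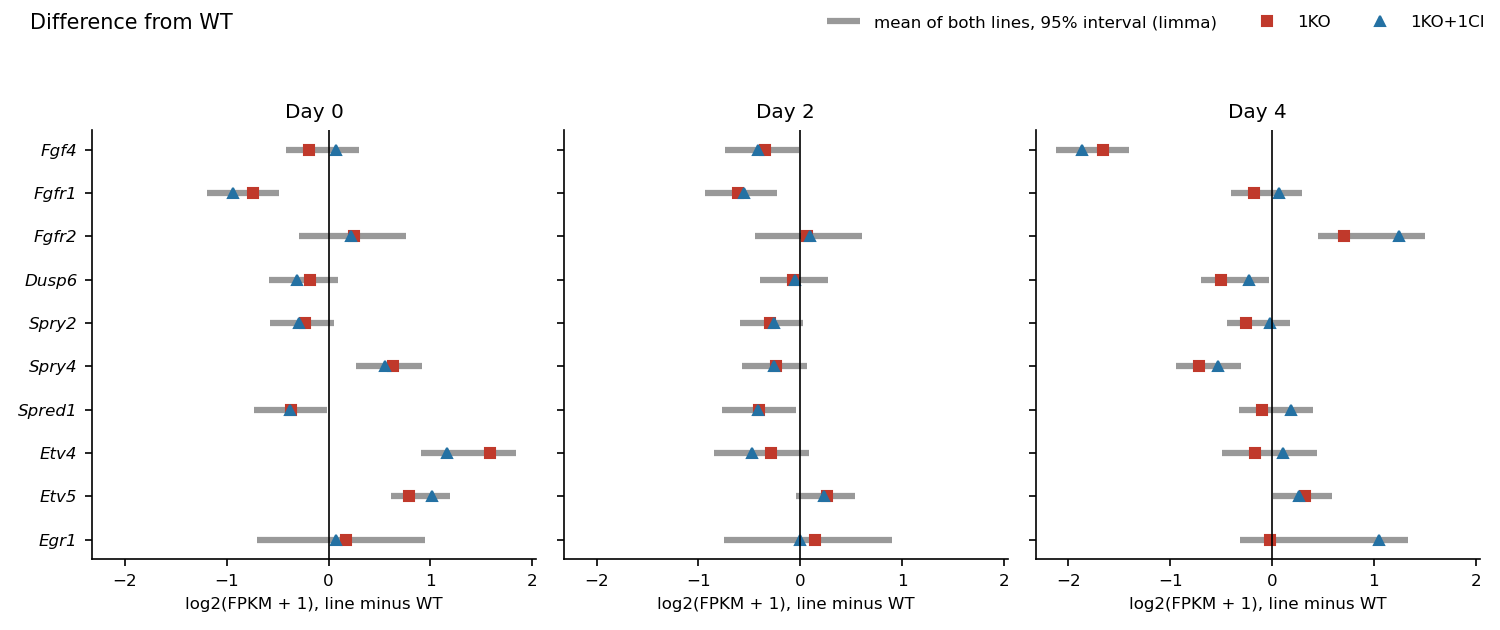
Difference from WT in log2(FPKM + 1) for each member at days 0, 2 and 4 (x axis, one panel a day), with 1KO as squares, 1KO+1CI as triangles and the 95% interval of their mean from limma as a grey bar. Etv4 and Etv5 lie to the right of 0 and Fgfr1 to the left at day 0, and Fgf4 stands furthest left at day 4.

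At day 0, 4 of 10 members passed, 3 higher and 1 lower without active DNMT1, beside 8.92% of all genes. The count was 2 without the 1KO+1CI day 0 library. The median of the members was 0.03, against -0.03 over all genes. Etv4 and Etv5, the ETS factor genes, had the largest of these differences, and Fgfr1 was the lower one.

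Etv4 (chr11:101769742-101785371) was at 9.17 FPKM for WT, 29.4 for 1KO and 21.9 for 1KO+1CI at day 0. The same lines held 37.8, 30.9 and 26.9 FPKM on day 2, then 19.2, 17.0 and 20.8 on day 4. The WT value was below both mutant lines at day 0, above both at day 2 and between them at day 4. The day 0 difference was 1.37 ± 0.20 (SE; limma, adjusted p = 0.0136), past the threshold with any mutant library left out. Day 2 over day 0 was 4.12 for WT, 1.05 for 1KO and 1.23 for 1KO+1CI, and the test of that change in difference gave -1.75 ± 0.29 (limma, adjusted p = 0.0536).

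Etv5 (chr16:22381309-22439719) had the highest FPKM of the members in all 9 libraries. At day 0 it was at 83.9 FPKM for WT, 146 for 1KO and 171 for 1KO+1CI. In the same order it was at 117, 141 and 138 FPKM on day 2, then 87.9, 111 and 106 on day 4. WT was the lowest of the 3 lines on each day. The day 0 difference was 0.90 ± 0.13 (SE; limma, adjusted p = 0.0117), and the day 4 difference was 0.30 ± 0.13 (limma, adjusted p = 0.254).

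Fgfr1 (chr8:25513654-25575718), the main FGF receptor of ESCs, was at 38.2 FPKM for WT, 22.5 for 1KO and 19.5 for 1KO+1CI at day 0. It was at 32.8, 21.1 and 22.1 FPKM at day 2 and at 35.0, 30.8 and 36.8 at day 4. WT stood above both mutant lines at days 0 and 2, and the lines overlapped at day 4. The difference was -0.84 ± 0.15 (SE) at day 0 (limma, adjusted p = 0.0220) and -0.58 ± 0.15 at day 2 (limma, adjusted p = 0.0813). Without 1KO+1CI day 0 the day 0 adjusted p was 0.0668.

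Spry4 at day 0 was 0.59 ± 0.14 (SE) higher without active DNMT1 (limma, adjusted p = 0.0391). That call was lost without the trend in the variance (adjusted p = 0.0550) and without 1KO day 0 (0.0922), 1KO day 2 (0.0890), 1KO+1CI day 0 (0.0786) or 1KO+1CI day 2 (0.0889). The libraries with more Etv4, Etv5 and Spry4 and less Fgfr1 at day 0 were also those with more feeder transcript, 293 and 320 FPKM summed against 121 in WT, and 9 of 9 feeder markers were higher in both mutant lines than in WT. Naive ESC markers were higher than in WT for 7 of 7 in both lines, with median differences of 0.33 for 1KO and 0.51 for 1KO+1CI and Klf4 at 30.3 FPKM for WT, 63.1 for 1KO and 67.1 for 1KO+1CI, and 4 of 5 epiblast markers were lower. Of 8 listed primitive endoderm markers, 5 were at 1 FPKM or more in either library compared. Of these, 4 of 5 were higher in 1KO and 5 of 5 in 1KO+1CI. Gata6 and Pdgfra reached 1 FPKM only in the mutant lines, so that minimum fixed their direction. Gata4 reached it in WT but not in 1KO, so its lower place in 1KO was fixed too. Dab2 was at 3.36 FPKM for WT, 4.65 for 1KO and 7.1 for 1KO+1CI, and Lama1 at 3.68, 4.12 and 7.26. The part of these markers in the day 0 differences was not tested.

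At day 2, 0 of 10 members passed (limma, 3 at an unadjusted p under 0.05), beside 3.62% of all genes. At day 4, 1 of 10 passed, beside 3.57% of all genes. It was Fgf4, with a difference of -1.76 ± 0.16 (SE; limma, adjusted p = 0.00190), lower in 2 of 2 mutant lines and past the threshold in all 13 alternatives run. The count was 3 without 1KO day 4. The change in difference from day 0 to day 4 passed for 2 members, Fgf4 at -1.70 ± 0.22 (limma, adjusted p = 0.0170) and Spry4 at -1.22 ± 0.20 (limma, adjusted p = 0.0280), beside 2.24% of all genes, and the count was 1 (Fgf4) without 1KO day 0, 1KO day 2, 1KO+1CI day 0 or 1KO+1CI day 2, where Spry4 had an adjusted p of 0.0635, 0.0760, 0.0624 and 0.0748. From day 2 to day 4 the change for Fgf4 was -1.38 ± 0.22 (limma, adjusted p = 0.0634), and 0 members passed (3 at an unadjusted p under 0.05) beside 0.233% of all genes. From day 0 to day 2, 0 members passed (limma, 3 at an unadjusted p under 0.05) beside 0.421% of all genes.

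Fgfr2 (chr7:130162451-133123350), which was below Fgfr1 in every library, was in WT at 5.82, 4.63 and 2.31 FPKM at days 0, 2 and 4. Fgfr3 and Fgfr4, which are not members, were below Fgfr2 in every library. In 1KO Fgfr2 was at 7.10, 4.88 and 4.41 FPKM, and in 1KO+1CI at 6.96, 5.00 and 6.84. At day 4 both mutant lines were above WT, and the difference of 0.98 ± 0.23 (SE) did not pass (limma, adjusted p = 0.0597). It passed without 1KO day 4 (adjusted p = 0.0171). Markers of primitive endoderm, in which Fgfr2 is the better known receptor, summed over all 8 listed to 7.86, 17.1 and 33.3 FPKM for WT, 1KO and 1KO+1CI at day 4. Lama1 and Dab2 held 12.3 and 11.6 FPKM of the 1KO+1CI sum, and Gata4 was lower in 1KO (0.96 FPKM) than in WT (1.56). In the same order the sums were 10.2, 14.1 and 21.9 FPKM at day 0 and 3.90, 8.91 and 22.3 at day 2. At day 2 the Fgfr2 levels of the lines lay close together. The part of these markers was not tested.

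The inactive DNMT1 transgene was assessed as 1KO+1CI against 1KO. Over all days 0 of 10 members passed (limma, 0 at an unadjusted p under 0.05), beside 0.00753% of all genes, which was 1 gene, Dnmt1. In the single libraries of each day, 0 of 10 members were past a 2-fold difference at day 0 beside 0.511% of genes, 0 at day 2 beside 0.418% and 1 at day 4 beside 1.12%. That member was Egr1 at day 4, 2.31-fold higher in 1KO+1CI, a comparison of 2 libraries with no test. The list of 18 other ETS and immediate-early targets had 15 genes at 1 FPKM or more in either library that day. Of these, 15 were higher in 1KO+1CI, with a median of 0.39 against 0.00 over all genes. Fosl1 among them reached 1 FPKM only in 1KO+1CI (1.80 against 0.93 FPKM), so the rule fixed its direction. Markers of other cell types were also higher in that library than in 1KO. Primitive endoderm markers were higher for 6 of 6 at 1 FPKM or more in either library, with a median difference of 0.57. Their sums over all 8 listed were 33.3 against 17.1 FPKM. Gata4, Gata6 and Sox17 reached 1 FPKM only in 1KO+1CI, so the rule fixed their direction. Of the rest, Dab2 was at 11.6 against 8.18 FPKM, Lama1 at 12.3 against 3.45 and Foxa2 at 2.46 against 2.42. Feeder markers at 1 FPKM or more in either library were higher for 7 of 8, with a median of 0.56. Col3a1 and Postn among them reached 1 FPKM only in 1KO+1CI, so the rule fixed their direction too. The sums of all measured feeder markers were 43.3 against 23.6 FPKM. Trophoblast markers, 3 measured of 5 listed, were higher for 3 of 3, with a median of 0.10 and sums of 184 against 97.3 FPKM. That gap was mostly Krt8, at 177 against 90.8 FPKM, while Krt7 (5.96 against 5.48) and Hand1 (1.15 against 1.07) hardly differed. Cdx2 and Elf5 were listed but had no entry in the deposited values. The part of these cell type markers was not tested. Phlda1 was at 20.6 against 6.83 FPKM, and it was named after its values were seen.

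Single libraries were also set against each other within each line and day, with a difference of 1 or more on the log2(FPKM + 1) scale taken as past 2-fold and no test. From day 0 to day 2, 3 of 10 members were past it in WT (Dusp6, Spry4 and Etv4, beside 7.36% of all genes), 2 in 1KO (Dusp6 and Spry4, beside 5.69%) and 2 in 1KO+1CI (Dusp6 and Spry4, beside 6.17%). From day 2 to day 4, 3 were past it in WT (Fgf4, Spry4 and Egr1, beside 9.92%), 3 in 1KO (the same names, beside 9.09%) and 2 in 1KO+1CI (Fgf4 and Spry4, beside 8.09%). Egr1 was the member missing from that last line, at 12.4 and then 11.6 FPKM. In 1KO against WT, 1 member was past it at day 0 (Etv4, beside 4.56%), 0 at day 2 (beside 2.79%) and 1 at day 4 (Fgf4, beside 2.77%). In 1KO+1CI against the same WT libraries, 2 were past it at day 0 (Etv4 and Etv5, both higher, beside 5.41%), 0 at day 2 (beside 4.33%) and 3 at day 4 (Fgfr2 and Egr1 higher and Fgf4 lower, beside 4.93%).

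The rest of the pathway was read from 87 genes in 7 lists, of which 79 were measured and 73 tested. Among the other ligands, Fgf5 and Fgf8 met the rule for naming. Fgf5, a marker of the primed epiblast, was at 6.97, 2.52 and 48.3 FPKM in WT at days 0, 2 and 4, 3.66, 14.7 and 86.4 in 1KO and 3.65, 16.7 and 67.0 in 1KO+1CI. At day 2 the mutant lines were far above WT, by 2.24 ± 0.18 (SE; limma, adjusted p = 0.00199), and Fgf5 was 3.58 ± 0.51 higher at day 4 than at day 0 over the 3 lines (limma, adjusted p = 0.00226).

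Fgf8, an FGF of the primitive streak, was at 9.17, 0.04 and 8.51 FPKM in WT, 3.62, 1.03 and 84.5 in 1KO, and 2.98, 1.96 and 63.0 in 1KO+1CI. The day 4 levels of both mutant lines lay above every WT library. That difference was 2.96 ± 0.27 (SE; limma, adjusted p = 0.00193), in the direction opposite to Fgf4 on the same day. The streak markers, 5 measured of 6 listed and Fgf8 among them, had day 4 sums of 23.0 FPKM for WT, 159 for 1KO and 150 for 1KO+1CI, and their part was not tested. Fgf8 itself held 8.51, 84.5 and 63.0 FPKM of these sums. T, the streak marker brachyury, was at 2.07, 29.2 and 27.2 FPKM.

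**Figure D4:**
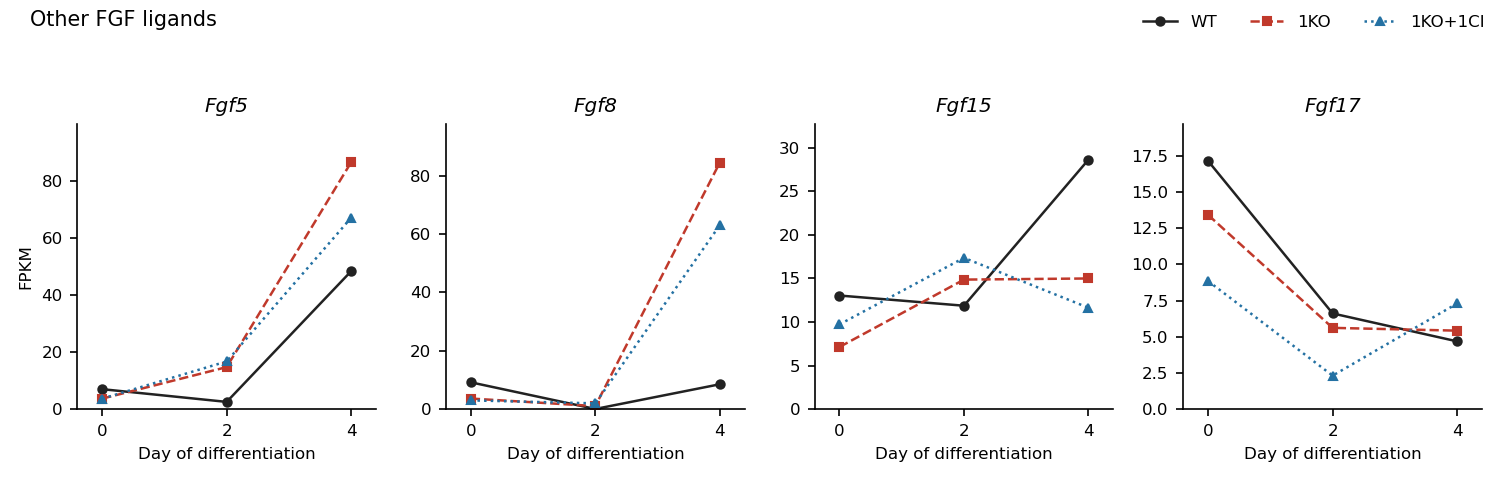
FPKM of Fgf5, Fgf8, Fgf15 and Fgf17 (y axes from 0) against day of differentiation for the 3 lines, 1 library a point. At day 4 Fgf8 is at 84.5 FPKM in 1KO and 63.0 in 1KO+1CI against 8.51 in WT, while Fgf15 is at 15.0 and 11.6 against 28.6.

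Of 8 ligands tested against WT, Fgf5 and Fgf8 were called lower and Fgf10 higher at day 0, beside 8.92% of all genes called. At day 2 Fgf5 and Fgf8 were called higher and Fgf1 lower, beside 3.62%, and at day 4 Fgf8 was called higher and Fgf15 lower, beside 3.57%. The day 0 differences were -0.78 ± 0.18 for Fgf5 (limma, adjusted p = 0.0380), -1.25 ± 0.27 for Fgf8 (0.0322) and 1.02 ± 0.22 for Fgf10 (0.0350), and each of these 3 calls was lost without either mutant day 0 library, with adjusted p of 0.0745 and 0.103 for Fgf8, 0.0712 and 0.105 for Fgf10 and 0.0908 and 0.0947 for Fgf5. The Fgf5 call was also lost without the 1KO day 2 library (0.0698) or the 1KO+1CI day 2 library (0.0703). Fgf10 and Fgf1 were low, with at most 2.39 and 3.88 FPKM in any library, beside the minimum of 1 FPKM for a test. At day 2 the Fgf8 call was lost without the 1KO day 0, 1KO+1CI day 0 or 1KO+1CI day 2 library (0.0787, 0.0788 and 0.204), and the Fgf1 call without the 1KO+1CI day 2 library (0.0579). Fgf15, an FGF best known as a hormone-like ligand, had day 4 levels of 28.6 FPKM for WT, 15.0 for 1KO and 11.6 for 1KO+1CI. That difference was -1.06 ± 0.22 (SE; limma, adjusted p = 0.0406), and its call was lost without 1KO day 2 (adjusted p = 0.0716), 1KO+1CI day 2 (0.0719) or 1KO+1CI day 4 (0.120). The 13 cascade genes, from Hras to Rps6ka3, held 0 calls against WT at any day (limma), beside 8.92%, 3.62% and 3.57% of all genes at days 0, 2 and 4, so that 0 of 13 is near the background. Among 8 adaptors Gab1, which docks signalling proteins behind receptors, differed from WT by -0.84 ± 0.14 (limma, adjusted p = 0.0208) at day 4, with 46.7 FPKM for WT, 23.5 for 1KO and 27.9 for 1KO+1CI. That day 4 call was lost without 1KO day 2 (adjusted p = 0.0531) or 1KO+1CI day 2 (0.0532). In the same order Gab1 was at 66.4, 47.2 and 43.7 FPKM at day 0 and at 94.7, 60.5 and 64.9 at day 2. In the fit of line and day Gab1 was the 1 adaptor called, lower in 1KO and in 1KO+1CI against WT (limma), beside 2.51% and 4.82% of all genes. Frs3 was the 1 adaptor called at day 0, lower without active DNMT1 (limma), beside 8.92% of all genes.

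Of 13 other feedback inhibitors tested, 2 rose from day 0 to day 2 and 0 fell, a share near the 17.5% of all genes called. Dusp4, another ERK phosphatase, was at 19.0, 13.4 and 12.2 FPKM in WT, 1KO and 1KO+1CI at day 0 and at 52.3, 41.1 and 47.9 at day 2, a difference of 1.62 ± 0.15 (SE; limma, adjusted p = 0.000931). Dusp9, whose product also acts on ERK, was at 20.8 FPKM in WT at day 2 against 51.8 in 1KO and 45.8 in 1KO+1CI. That difference of 1.19 ± 0.30 did not pass (limma, adjusted p = 0.0750). Il17rd, a membrane inhibitor of FGF receptors, crossed over between lines: it was at 17.7 FPKM for WT, 8.97 for 1KO and 8.56 for 1KO+1CI at day 0, and at 18.2, 30.5 and 29.6 at day 4. The Il17rd difference from WT was -0.94 ± 0.13 (SE; limma, adjusted p = 0.0117) at day 0 and 0.70 ± 0.13 (limma, adjusted p = 0.0322) at day 4, and the day 4 call was lost without 1KO day 2 (adjusted p = 0.0811), 1KO day 4 (0.0569), 1KO+1CI day 2 (0.0815) or 1KO+1CI day 4 (0.0846). Gpc3, a heparan sulfate proteoglycan gene, was at 35.7 FPKM for WT, 30.3 for 1KO and 42.0 for 1KO+1CI at day 0. In the same order it was at 6.4, 15.6 and 19.6 FPKM at day 2, a mean difference from WT of 1.32, and at 18.2, 43.3 and 41.1 at day 4. At day 4 it was 1.17 ± 0.21 higher in the mutant lines (limma, adjusted p = 0.0256), and not past the threshold without 1KO+1CI day 4 (0.0694). Fgf1, Fgf10, Fgf15, Fgfr3, Fgfr4, Gab1, Frs3, Dusp4, Il17rd, Gata4, Lama1, Dab2 and T were named after their values were seen.

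Over the 9 libraries, which share lines and days and are not independent, the members varied in different ways. Dusp6 and Spry2 had the highest Pearson correlation of any pair (r = 0.91) and Fgfr1 and Etv5 the lowest (r = -0.93). Among 9729 genes with 5 FPKM or more in a library, the pattern of Fgf4 was most like those of Lncenc1 (r = 0.99), Phkg2 and Ddx11 (both 0.97). Dusp6 was most like Zfp110, 1500011B03Rik and A930024E05Rik (r = 0.98 for each), Spry2 most like Zbtb9, Gcc2 and Slc38a7, and Spry4 most like Zfp961, Dbt and Gm14305. For Etv4 they were Zbtb2, L1td1 and BC005537, for Etv5 they were Znf41-ps, Dpysl3 and Zfp991, and for Egr1 they were Pcolce, 1810030O07Rik and Tmem184b. For Fgfr1 they were 4933416M07Rik, Shroom3 and Dguok, for Fgfr2 Map4, Cyb5r3 and Tmem259, and for Spred1 Carnmt1, Patl1 and Anks3.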

How the data were processed

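RNA-seq reads were trimmed with Trim Galore, aligned to mm10 with HISAT2 and summarised per gene with HOMER by the authors, who deposited FPKM values for each gene and library; the sources used here give no tool versions. A gene's deposited FPKM behaves as a mean over its transcripts, so levels of genes with several transcripts are less certain. Of 15095 entries, 21 named no gene and were left out. A second table, of repeats, was not used. Sequenced reads were recovered from the steps of the values, on the assumption that 1 step is 1 read. The counting intervals and counting SDs cover counting error only, unlike the intervals from limma.

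Tests were made with limma 3.58.1 in R 4.3.3 on log2(FPKM + 1), with a trend in the variance and Benjamini-Hochberg adjustment, over genes at 1 FPKM or more in at least 1 library. Line and day were fitted as additive terms; a second fit of class and day was added after the values were seen. On simulated data with 100 genes each shifted by 1 and 2 in day 4 against day 0, over 13288 genes, the fit of line and day recovered 76% and 96%, with 4.97% of calls false. The simulated noise was independent between libraries, with no other line or day effect. In the data the residual also holds differences in how the lines respond, so the false share there is not known from it. The fit of class and day was not simulated. With 1 library a side, a difference of 1 or more on the log2 scale, with 1 FPKM in either library, was counted as past 2-fold, with no test. Alternatives were pseudocounts of 0.1 and 0.01, no minimum and a minimum of 5 FPKM, TPM and median-ratio scaling, no variance trend, and each library left out. The members and gene lists were chosen with earlier results of these data known. Named pathway genes differed by 1 or more in the same direction in all lines from day 0 to day 4, or in both mutant lines against WT on a day, at 5 FPKM or more in 1 library. Gene coordinates are from GENCODE M21. The level of 1 pathway gene is not reported here.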

Additional observations from a re-analysis of the deposited data

Results flagged for a closer look

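Several results differed between lines under the same day contrast. In the test of the change in difference from WT between day 0 and day 4 (limma, 2 libraries against 1), Fgf4 moved by -1.70 and Spry4 by -1.22, and among other pathway genes Fgf5 moved by 1.42 (adjusted p = 0.0348), Fgf8 by 4.21 (adjusted p = 0.00574) and Il17rd by 1.63 (adjusted p = 0.0110). Between day 0 and day 2, Fgf5 moved by 3.02 (adjusted p = 0.0216) and Fgf8 by 2.49 (adjusted p = 0.0469). The Fgf5 call between day 0 and day 4 was lost without 1KO day 0 (adjusted p = 0.0749), 1KO day 2 (0.0760), 1KO+1CI day 0 (0.0810) or 1KO+1CI day 2 (0.0748). Between day 0 and day 2, leaving out the same libraries in that order gave adjusted p-values of 0.0592, 0.0537, 0.0729 and 0.119 for Fgf5 and of 0.120, 0.0620, 0.138 and 0.148 for Fgf8. The Spry4 call was lost without the same libraries, and those of Fgf4 and Il17rd, and of Fgf8 between day 0 and day 4, were not lost under any alternative run.

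For 2 members the WT and 1KO libraries moved in opposite directions from day 0 to day 4 by 0.5 or more each: Spry4 by 0.72 in WT and -0.63 in 1KO, and Etv4 by 0.99 in WT and -0.76 in 1KO. In 1KO+1CI the same differences were -0.36 for Spry4 and -0.07 for Etv4. WT against 1KO alone was not tested for this change, having 1 library on each side; with both mutant lines in 1 class the change for Etv4 was -1.40 (limma, adjusted p = 0.0514), past the threshold in 2 of 13 alternatives.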

How the results depend on the processing

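The 6 counts from the fit of line and day stayed within 1.5 times under the other pseudocounts, minimums, scalings and variance model. The 12 counts of members past 2-fold between single libraries that were recounted also stayed within 1.5 times. Those of 1KO+1CI against WT were not recounted. In the fit of class and day, the count at day 4 was 2 rather than 1 with a pseudocount of 0.01 and with a minimum of 5 FPKM, and the count for the change in difference from day 0 to day 2 was 1 rather than 0 with a pseudocount of 0.01, a minimum of 5 FPKM, TPM rescaling or median-ratio scaling (Etv4). No called direction was reversed. Of 720 recomputed differences of members between single libraries, 51 moved by more than the counting interval, 30 of them under TPM rescaling, and 669 did not.

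With each library left out, the fit of line and day gave 2 to 4 members at day 2 against day 0, 2 to 6 at day 4 against day 2, 3 to 7 at day 4 against day 0, 0 to 1 for 1KO against WT, 0 to 0 for 1KO+1CI against 1KO and 0 to 1 for 1KO+1CI against WT. The fit of class and day gave 2 to 4 at day 0, 0 to 0 at day 2, 1 to 3 at day 4, and 1 to 2, 0 to 1 and 0 to 1 for the changes in difference from day 0 to day 4, day 2 to day 4 and day 0 to day 2; with a mutant library left out, the lone one was assumed to vary like the others. WT libraries could not be left out of it. The fit of line and day compares days within lines, with line as a term, and the labels carry no replicate numbers for any other block. The causes were not tested.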
